A study of Rattus norvegicus with 10 samples.

Results

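Mature miRNAs best known from liver, gut, kidney and pancreas were followed in rat hippocampus: miR-122-5p, miR-192-5p, miR-194-5p, miR-216a-5p and miR-217-5p. They were chosen by name, and each of the 5 names matched 1 of the 765 rows of the deposited table. Small RNA was sequenced from hippocampi of Wistar rats aged 10 weeks, in 5 libraries of a 2-VO group, whose common carotid arteries were both occluded so that less blood reaches the brain, and in 5 libraries of a sham-operated group. The 2-VO libraries carry the numbers 3, 5, 6, 7 and 8 and the sham libraries 1 to 5. The sources used here do not give the sex, the interval from operation to sampling or any pooling of animals. The labels do not tie each library to its own animal, and every p-value therefore refers to a spread between libraries that could be technical.

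A miRNA is cut from a hairpin precursor and guides silencing of mRNAs that pair with its seed, the bases 2 to 8 counted from its 5′ end. miR-122-5p is the dominant miRNA of hepatocytes and a regulator of lipid metabolism there. miR-192-5p and miR-194-5p are made from neighbouring hairpins and are abundant in the epithelium of gut and kidney and in liver, where hepatocyte nuclear factors are known to drive them in human and mouse cells. miR-216a-5p and miR-217-5p are also neighbours and mark the acinar cells of the pancreas.

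The mature sequences, from RefSeq on build GRCr8, are shown with the seed in capitals because they decide which rows could be mistaken for each other and which share targets by seed. miR-215, the paralog of miR-192-5p, and miR-216b-5p, the paralog of miR-216a-5p, are set with them.
miR-122-5p: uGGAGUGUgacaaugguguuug
miR-192-5p: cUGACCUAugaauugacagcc
miR-215: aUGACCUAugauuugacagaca
miR-194-5p: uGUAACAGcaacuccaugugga
miR-216a-5p: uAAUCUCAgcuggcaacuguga
miR-216b-5p: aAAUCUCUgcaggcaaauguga
miR-217-5p: uACUGCAUcaggaacugacugg
The 5 seeds differ from each other. A RefSeq mature sequence was matched to 690 of the 765 rows, and among these miR-215 alone shared the seed of a member, UGACCUA of miR-192-5p. Over 21 positions counted from the 5′ end, miR-192-5p and miR-215 differed at 3, written miR-192-5p base first as C1A, A12U and C20A. miR-216a-5p and miR-216b-5p differed at 4 of 22 positions (U1A, A8U, U11A and C17A), of which A8U lies in the seed. No other row lay within 0.05 of a member above 0 on the log2 scale in all libraries, so no member was listed under another name as well.

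On that build, which is not the rn6 build of the deposited files, the hairpin of miR-192 lies on the plus strand of chromosome 1, 100 bases after the hairpin Mir194-2. The hairpin of miR-215 lies on chromosome 13, 191 bases after Mir194-1. Both Mir194 hairpins give the same 22-base miR-194-5p, so its reads cannot be assigned to either chromosome. Mir216b, Mir216a and Mir217 follow each other on the plus strand of chromosome 14, with 10949 and 7302 bases between them. Mir122 stands on chromosome 18.

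Levels are given as deposited in RPM, the reads of a miRNA scaled to the library's divisor of 13032805 to 13850400 reads. Fewer than 10 reads are taken to be listed as 0, so that the lowest value a library can show lies between 0.722 and 0.767 RPM. The listed miRNAs made up 60.3% to 78.0% of the divisor, with the lowest share in 2-VO replicate 3. The list named neurons here, miR-9a-5p, miR-124-3p and miR-128-3p, held 25.2% to 27.3% of the listed RPM. Most of this was miR-9a-5p, which averaged 132415 RPM, against 52524 RPM for miR-128-3p and 2255 RPM for miR-124-3p. The 5 liver, gut and pancreas miRNAs together held 0.0457% to 0.0881%.

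Of the 5 members, 4 were detected, each in 10 of 10 libraries. The mean level of miR-192-5p, the highest, was 177 times that of miR-122-5p, the lowest of these 4. miR-192-5p had rank 107 of the 528 miRNAs above 0 in any library, with a mean of 419 RPM over all libraries. It stood between miR-338-5p (421 RPM) and miR-92a-3p (418 RPM). miR-194-5p had rank 199 with 92.2 RPM, between miR-380-3p and miR-340-3p. miR-217-5p had rank 415 with 2.76 RPM and miR-122-5p rank 430 with 2.36 RPM. miR-216a-5p was listed at 0 in all 10 libraries.

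**Figure D1:**
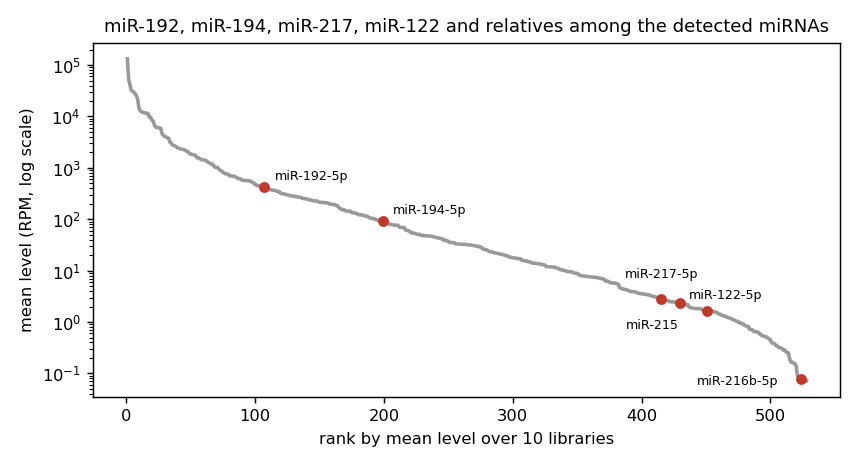
Mean level over the 10 libraries (RPM, log scale) against rank for the 528 miRNAs above 0 in any library, as a grey line. Red points mark the 4 detected members, miR-215 and miR-216b-5p: miR-192-5p and miR-194-5p lie at ranks 107 and 199, the others at rank 415 or beyond.

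The order miR-192-5p, miR-194-5p, then miR-217-5p and miR-122-5p held in each library, and the ranges of miR-192-5p, of miR-194-5p and of the low pair did not overlap. These last were not separated beyond their spread. miR-217-5p ran from 1.85 to 5.06 RPM and miR-122-5p from 0.948 to 3.12 RPM. Both stood at 2.37 RPM with 31 reads in 2-VO replicate 5. miR-217-5p was the higher in 3 of 10 libraries, although its mean was higher. All mature forms have 21 or 22 bases, so these levels need no correction for length.

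miR-192-5p, of gut and kidney epithelium and liver, was the most abundant member and made up 78.5% to 82.4% of the members' RPM. In 2-VO replicates 3, 5, 6, 7 and 8 it had 378, 386, 292, 342 and 530.3 RPM, against 472, 490.1, 515, 377 and 406 RPM in sham replicates 1 to 5. The 2-VO group held both the lowest library (replicate 6) and the highest (replicate 8), and the groups overlapped. These values rest on 3846 to 7339 reads. The spread between libraries of a group was 13.5 times what counting alone gives. The 95% exact binomial interval of 2-VO replicate 8 was 518 to 543 RPM and that of 2-VO replicate 6 was 283 to 302 RPM, where intervals cover counting error only. The other arm of the hairpin, miR-192-3p, was listed at 0 in all 10 libraries.

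miR-194-5p, its cluster partner, had 77.6, 86.7, 58.6, 72.4 and 119.7 RPM in 2-VO replicates 3, 5, 6, 7 and 8, against 95.02, 111, 115, 81.4 and 104 RPM in sham replicates 1 to 5. The lowest and the highest library were again 2-VO replicates 6 and 8. It rested on 771 to 1657 reads, with a spread 7.17 times the counting error. miR-194-3p, which RefSeq's table gives for the Mir194-2 hairpin, was above 0 in 9 libraries. It had 0.948, 0.993, 1.14, 1.13 and 1.01 RPM in 2-VO replicates 3, 5, 6, 7 and 8, against 1.2996, 1.63, 1.91 and 1.92 RPM in sham replicates 1 to 4 and a listed 0 in sham replicate 5. Its 2-VO values lay below those of these 4 sham libraries and above that of the fifth.

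**Figure D2:**
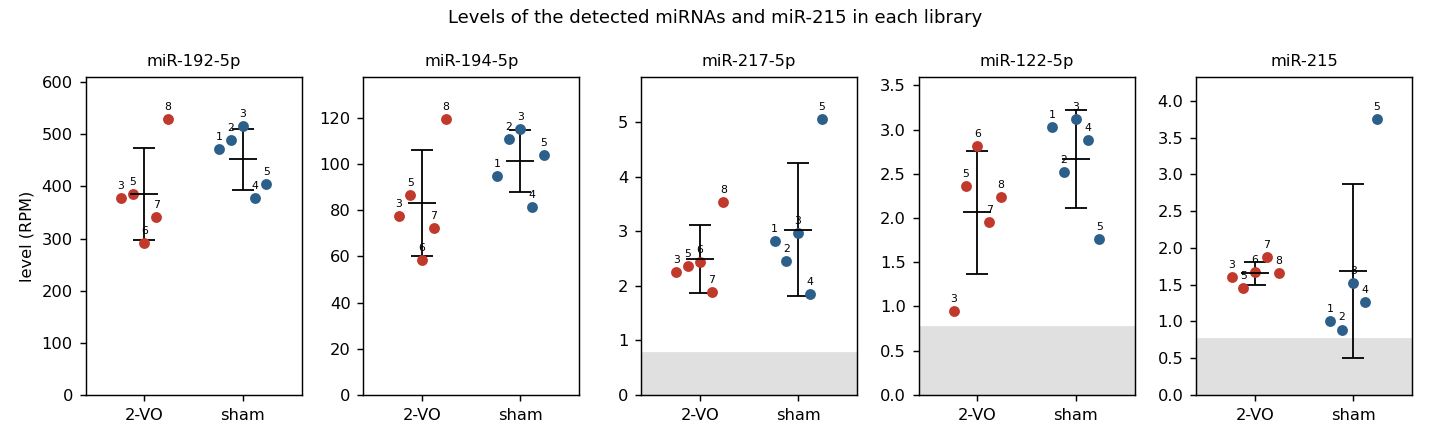
Level (RPM) of miR-192-5p, miR-194-5p, miR-217-5p, miR-122-5p and miR-215 in each library, 2-VO in red and sham in blue, with the replicate number at each point and bars for mean and SD (n = 5 each). Grey bands mark the range below the listing limit of at most 0.767 RPM. The groups overlap in every panel, and sham replicate 5 stands highest for miR-217-5p (5.06 RPM) and miR-215 (3.76 RPM).

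miR-192-5p and miR-194-5p varied together from library to library. Over the 10 libraries Pearson's r of log2(RPM + 1) was 0.95 (permutation test with 100000 resamples, two-sided, p = 5e-05, Benjamini-Hochberg adjusted over 6 pairs of members p = 0.00030). Spearman's rho was 0.98 (permutation p = 1e-05, the smallest that these resamples can give, adjusted p = 6.0e-05). Without 2-VO replicates 6 and 8, the libraries farthest from the median of miR-192-5p, r was 0.90. With each group centred on its own mean it was 0.94. All RPM values of a library share its divisor, and with the values scaled to the listed miRNA reads r was 0.94.

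The ratio of miR-192-5p to miR-194-5p, which does not depend on the divisor, stayed within a narrow range. It was 4.87, 4.45, 4.99, 4.72 and 4.43 in 2-VO replicates 3, 5, 6, 7 and 8, against 4.97, 4.41, 4.48, 4.63 and 3.90 in sham replicates 1 to 5. The lowest ratio was that of sham replicate 5. For the log2 scale 1 RPM was added to each level, so the log2 ratio is slightly smaller than that of the plain values and depends slightly on the divisor. On that scale the SD of the ratio over the 10 libraries was 0.10, while that of miR-192-5p was 0.28 and that of miR-194-5p 0.33. The log2 ratio averaged 2.21 ± 0.0730 in 2-VO and 2.15 ± 0.127 in sham libraries (SD, n = 5 each, exact two-sided permutation test, p = 0.37), so a difference between the groups was not detectable over this spread.

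**Figure D3:**
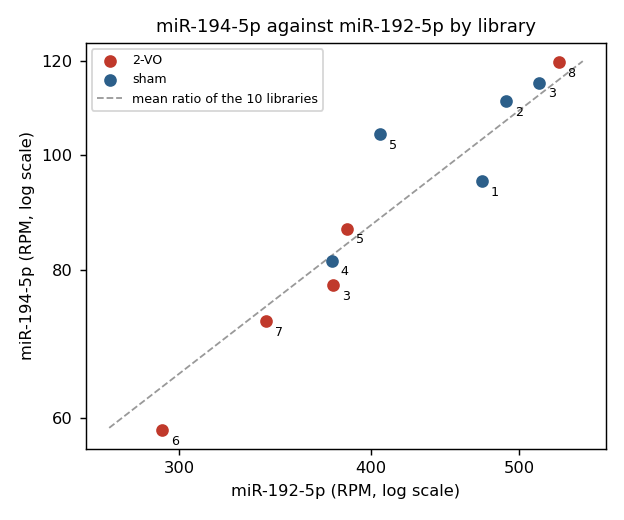
Level of miR-194-5p against that of miR-192-5p (RPM, both axes on a log scale) in the 10 libraries, 2-VO in red and sham in blue with replicate numbers, and a dashed line at the mean ratio. The libraries run along the line, from 2-VO replicate 6 at the low end to 2-VO replicate 8 at the high end, with sham replicate 5 above it at a ratio of 3.90.

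A filter kept the 474 miRNAs that averaged 1 RPM or more over all libraries. Among the 473 others of these, miR-194-5p had the highest r with miR-192-5p, and miR-192-5p the highest r with miR-194-5p. The median r of the 473 was 0.18 for miR-192-5p and 0.22 for miR-194-5p. The next 4 miRNAs were the same for both: miR-28-5p (r = 0.88 with miR-192-5p and 0.92 with miR-194-5p), miR-6315 (0.86 and 0.85), miR-339-3p (0.83 and 0.83) and miR-22-3p (0.81 and 0.80). These r values are descriptions over 10 libraries that share their divisor. miR-28-5p averaged 22.0 RPM and miR-22-3p 1319 RPM, so likeness in pattern did not go with likeness in level.

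miR-215 shares its seed with miR-192-5p but not its locus. It had 1.604, 1.45, 1.67, 1.88 and 1.66 RPM in 2-VO replicates 3, 5, 6, 7 and 8, against 1.01, 0.890, 1.52, 1.26 and 3.76 RPM in sham replicates 1 to 5. The 2-VO libraries lay close together, while sham replicate 5 lay far above the other sham libraries. The level of miR-192-5p was 108 to 551 times that of miR-215 within a library. The pattern of miR-215 did not follow that of miR-192-5p: r was -0.26, rank 432 of 473, and with miR-194-5p it was -0.022, rank 384. miR-215 rested on 12 to 49 reads per library, with a spread 2.38 times the counting error.

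**Figure D4:**
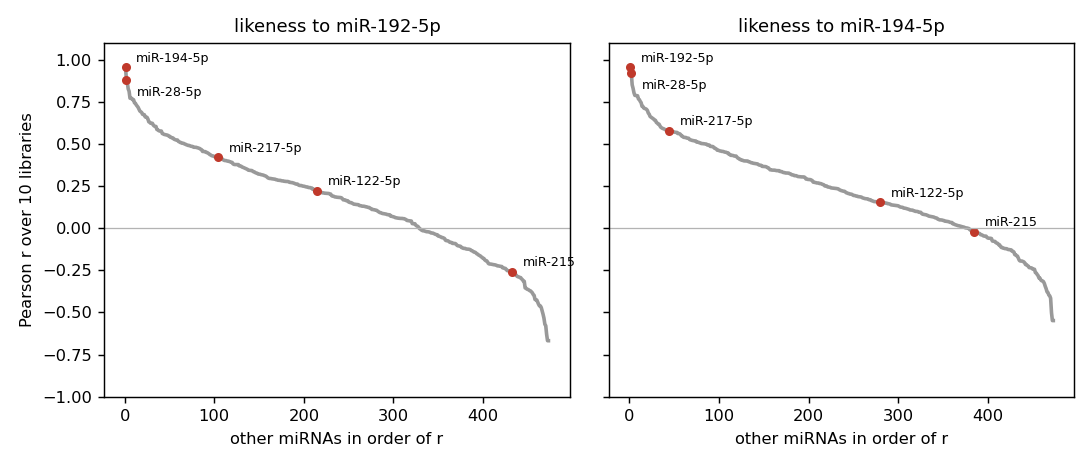
Pearson's r of log2(RPM + 1) over the 10 libraries between miR-192-5p (left) or miR-194-5p (right) and each of the other 473 kept miRNAs, in descending order. Red points mark named miRNAs: the cluster partner comes first in both panels, miR-28-5p second, and miR-215 at rank 432 and 384.

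miR-217-5p, the pancreatic acinar miRNA, had 2.26, 2.37, 2.43, 1.88 and 3.54 RPM in 2-VO replicates 3, 5, 6, 7 and 8, against 2.82, 2.45, 2.97, 1.85 and 5.06 RPM in sham replicates 1 to 5. Sham replicate 5 was highest and 2-VO replicate 8 second, and the groups overlapped. With 25 to 66 reads per library, the spread was 2.13 times the counting error. Its Spearman's rho was 0.73 with miR-192-5p (permutation p = 0.021, adjusted over 6 pairs p = 0.041) and 0.75 with miR-194-5p (permutation p = 0.018, adjusted p = 0.041). Pearson's r was lower, 0.42 (permutation p = 0.23, adjusted p = 0.46) and 0.58 (permutation p = 0.077, adjusted p = 0.23), so the relation was found on ranks and not on the log2 scale. Without 2-VO replicates 6 and 8 these r were 0.36 and 0.63. The miRNAs most like it in pattern were miR-653-5p (r = 0.86), miR-199a-3p (0.78), miR-152-3p (0.78), let-7f-1-3p (0.77) and miR-126a-3p (0.77). The median r of the 473 others with miR-217-5p was 0.25. The r values of these most alike miRNAs were not recomputed without sham replicate 5, where miR-217-5p was highest.

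The neighbours of miR-217-5p in its cluster were close to or below the listing limit. miR-216a-5p, miR-216a-3p, miR-216b-3p and miR-217-3p were listed at 0 in all 10 libraries. miR-216b-5p was listed in 1 library, sham replicate 5, with 10 reads or 0.767 RPM, which is the listing limit itself. Sham replicate 5 was thus the library with the highest miR-217-5p, the highest miR-215 and the only value of miR-216b-5p. The 6 choroid plexus and ependyma miRNAs also summed highest there, to 2022 RPM, against 857 to 1197 RPM in 2-VO libraries and 871 to 1337 RPM in the other sham libraries. The sum reflects mainly miR-34c-5p and miR-204-5p, which averaged 603 and 539 RPM over all libraries. miR-448-3p averaged 21.4 RPM and the others less. All 6 of these were above 0, and their part in the values of sham replicate 5 was not tested. miR-653-5p had the highest r with miR-215 as well (0.87).

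miR-122-5p, the hepatocyte miRNA, had 0.948, 2.37, 2.81, 1.95 and 2.24 RPM in 2-VO replicates 3, 5, 6, 7 and 8, against 3.03, 2.52, 3.12, 2.89 and 1.76 RPM in sham replicates 1 to 5. It was lowest in 2-VO replicate 3, where it stood for 13 reads (95% exact binomial interval 0.505 to 1.62 RPM), and highest in sham replicate 3 with 41 reads (2.24 to 4.24 RPM). The spread between libraries of a group was 1.498 times the counting error, so much of it is of the size that counting gives. miR-122-3p was listed at 0 throughout. Its pattern did not go with that of the others, with r of 0.22 with miR-192-5p (permutation p = 0.55), 0.15 with miR-194-5p (permutation p = 0.68) and -0.075 with miR-217-5p (permutation p = 0.82), all with an adjusted p of 0.81 or 0.82. The miRNAs most like it were miR-485-5p (r = 0.91), miR-1843b-3p (0.89), miR-667-3p (0.89), miR-1224 (0.86) and miR-329-3p (0.85). The median r of the 473 others with miR-122-5p was 0.35. The r values of these most alike miRNAs were not recomputed without 2-VO replicate 3, which also had the lowest share of listed reads.

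Plasma and blood cells are other places from which a tissue sample can carry RNA. The red blood cell miRNAs miR-451-5p, miR-144-3p, miR-144-5p and miR-486 were all detected and summed to 84.9 to 219.7 RPM in 2-VO and 131 to 157 RPM in sham libraries. They were highest in 2-VO replicate 8, where miR-192-5p and miR-194-5p were highest, and lowest in 2-VO replicate 3, where miR-122-5p was lowest. The red blood cell sum reflects mainly miR-486, which averaged 120 RPM over all libraries, against 19.8 RPM for miR-451-5p and less for the others. Other lists had their extremes in the same libraries. Among these, the leukocyte and microglia sum reflects mainly miR-150-5p (mean 229 RPM, against 22.2 RPM for miR-142-3p and less for the others). The leukocyte and microglia miRNAs also summed highest in 2-VO replicate 8 (297 RPM) and lowest in 2-VO replicate 3 (233 RPM), the vessel wall list was highest in 2-VO replicate 8, and the neuron and muscle lists were lowest in 2-VO replicate 3, which had the lowest share of listed reads. In 2-VO replicate 6, which had the lowest miR-192-5p, the red blood cell miRNAs summed to 149 RPM. The part of blood in these levels was not tested. In bulk tissue, fewer cells of a type and less of the RNA per cell cannot be told apart.

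The comparison of 2-VO with sham asks whether these miRNAs differ after carotid occlusion. All 4 detected members had lower mean levels in 2-VO, and none passed the threshold. miR-192-5p averaged 386 ± 88.9 RPM in 2-VO and 452 ± 58.4 RPM in sham libraries (SD, n = 5 each), giving -0.25 ± 0.15 (SE) as log2 fold change and 0.77 as adjusted p (limma). miR-194-5p averaged 83.0 ± 22.9 and 101 ± 13.5 RPM, a log2 fold change of -0.31 ± 0.17 (limma adjusted p = 0.76). For miR-122-5p the means were 2.06 ± 0.697 RPM in 2-VO and 2.67 ± 0.554 RPM in sham libraries, with a log2 fold change of -0.28 ± 0.19 (limma adjusted p = 0.82). For miR-217-5p they were 2.50 ± 0.622 and 3.03 ± 1.22 RPM, with a log2 fold change of -0.17 ± 0.19 (limma adjusted p = 0.92). All were computed from log2(RPM + 1), where the added 1 makes the change of miR-122-5p and miR-217-5p look smaller.

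Of the 4 members tested, 0 passed at an adjusted p under 0.05, and of all 474 miRNAs 0 passed (0%). An unadjusted p under 0.05 was found for 0 of the 4 members, and over all miRNAs for 24 of 474 (5.06%), 20 of which were lower in 2-VO (4.22%). These counts rest on single libraries. With 2-VO replicate 8 left out it was 2 of the 4 members, miR-192-5p and miR-194-5p (limma adjusted p = 0.49 each), beside 42 of all 474 miRNAs. With sham replicate 4 left out it was 1 of the 4 members, miR-194-5p (limma adjusted p = 0.85), beside 25 of all 474. Over all miRNAs leaving out 1 library gave counts from 12 to 42: the lowest when sham replicate 2 was dropped, then 14 (sham replicate 3), and the highest when 2-VO replicate 6 or 8 was dropped, then 37 (sham replicate 5). At an adjusted p under 0.05, limma's voom on the whole reads gave 0 of 474 as well. Exact two-sided permutation tests of the RPM values, whose smallest possible p is 0.0079, gave p = 0.17 for miR-122-5p, 0.21 for miR-192-5p, 0.17 for miR-194-5p and 0.47 for miR-217-5p. The 2 groups overlapped for all 4, while they did not overlap for 0.633% of the 474 miRNAs. As deposited, 62.2% of the 474 miRNAs had a lower mean level in 2-VO (median log2 fold change -0.051), but this share was 49.4% (median 0.00061) when RPM was rescaled to the reads on listed miRNAs, 47.7% (0.0068) under TMM scaling and 50.2% (-0.0020) without 2-VO replicate 3. The 4 members had a median of -0.26, and miR-192-5p and miR-194-5p do not count as separate observations, since they varied together.

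**Figure D5:**
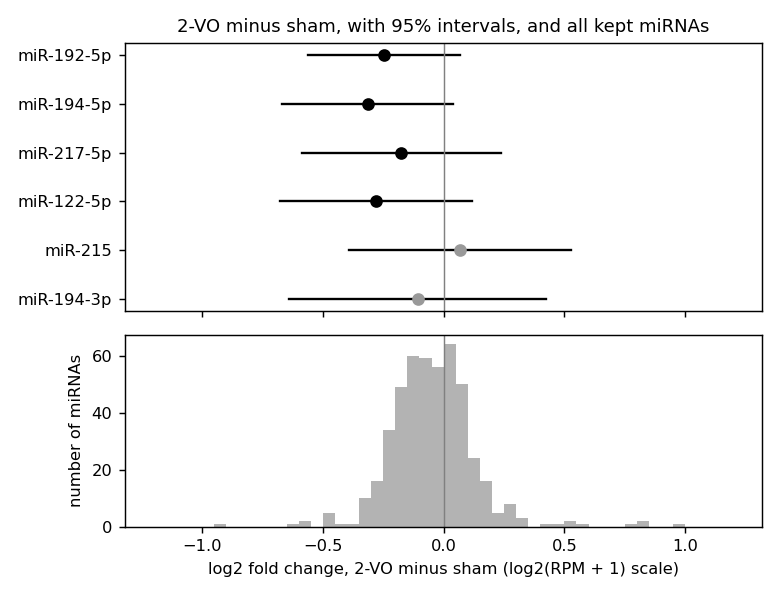
Top, log2 fold change of 2-VO minus sham with its 95% interval for the 4 detected members (black points) and for miR-215 and miR-194-3p (grey points). Bottom, the fold changes of all 474 kept miRNAs on the same axis, with counts per bin of miRNAs. All 6 intervals hold 0, and those of miR-192-5p and miR-194-5p reach from -0.56 to 0.066 and from -0.67 to 0.040.

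The intervals say which differences in RPM + 1 these libraries leave possible. On that scale the 95% interval of the fold of 2-VO over sham ran from 0.68 to 1.05 for miR-192-5p. It ran from 0.63 to 1.03 for miR-194-5p, from 0.63 to 1.08 for miR-122-5p and from 0.67 to 1.18 for miR-217-5p. For miR-122-5p and miR-217-5p the added 1 shrinks the fold, so their intervals do not bound the change in RPM itself. Voom on whole reads gave them log2 fold changes of -0.42 and -0.22. The log2 fold change was 0.068 ± 0.22 for miR-215 (SE, limma adjusted p = 0.96), and miR-194-3p had one of -0.11 ± 0.25 (limma adjusted p = 0.96). Single libraries set the size of several of these. Without 2-VO replicate 8 the log2 fold change was -0.37 for miR-192-5p and -0.45 for miR-194-5p, and without 2-VO replicate 6 it was -0.15 and -0.20. Without 2-VO replicate 3 that of miR-122-5p was -0.12, and without sham replicate 5 that of miR-217-5p was -0.016 and that of miR-194-3p -0.39 (limma unadjusted p = 0.013, adjusted p = 0.46). Sham replicate 5 is the library in which miR-194-3p is listed at 0, and its fold change was -0.0060 without sham replicate 3 and -0.0037 without sham replicate 4. miR-215 was at 0.30 without sham replicate 5.

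Other miRNAs known from liver, gut, pancreas or kidney were set beside the members from a list of 27 names, of which 26 matched a row and 19 passed the filter of 1 RPM. In 2-VO, 9 of the 19 had a higher and 10 a lower mean log2 level (median log2 fold change -0.011, against -0.051 over all 474 miRNAs), and 0 passed the adjusted threshold. An unadjusted p under 0.05 (limma) was found for 1 of the 19, miR-204-5p, against 5.06% of all 474 miRNAs. The list spans miRNAs from far above to below the members. It overlaps the lists above: miR-204-5p is also counted with choroid plexus and ependyma, and miR-143-3p and miR-145-5p with the vessel wall. miR-148a-3p, which is abundant in pancreas and liver, averaged 12168 ± 2504 RPM in 2-VO and 11330 ± 1066 RPM in sham libraries (SD, n = 5 each). miR-375-3p, of pancreatic islets, averaged 24.0 ± 4.87 and 39.6 ± 24.8 RPM. The smallest p values were those of miR-204-5p (log2 fold change -0.57, limma adjusted p = 0.44), miR-22-3p (-0.14, limma adjusted p = 0.82) and miR-200b-3p (0.77 ± 0.56, SE, limma adjusted p = 0.82). miR-200b-3p stood at 18.4 RPM in 2-VO replicate 3 and at 0 to 3.97 RPM in the other 2-VO libraries, and its log2 fold change was 0.19 without that library and 1.26 without 2-VO replicate 7. miR-802-5p, a miRNA of liver and pancreas, was listed at 0 in all libraries, as were miR-193a-3p, miR-141-3p and miR-483-5p.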

How the data were processed

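The members and lists were chosen with earlier results of these data known. The authors deposited 1 table of RPM values for 765 rat miRNAs in 10 libraries. bcl2fastq, BWA and rn6 are named per the submitters' processing notes. The sources used here name neither the annotation nor the handling of reads with several matches nor the choice of divisor. All 4962 values above 0 were whole reads within 0.01 at 1 divisor per library. In the search for that divisor the smallest value of a library was taken as 10 reads, which was set and not found. Lower counts are taken to be listed as 0.

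Groups and replicate numbers follow the labels. log2(RPM + 1) of the 474 miRNAs that averaged 1 RPM or more was tested with limma 3.58.1 in R 4.3.3 (mean-variance trend, two-sided, no covariate, Benjamini-Hochberg adjustment over all 474, threshold 0.05). The fit was also run on simulated data with shifts larger than the members' changes, so that run does not measure power for these. Permutation tests used scipy 1.17.1 in Python 3.11.15. Counting error is taken as Poisson. Named are all members, their other arms and paralogs above 0, the 5 miRNAs most like each member by r, and up to 3 of the tissue list by p. miR-148a-3p and miR-375-3p were added after their values were seen.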

Additional observations from a re-analysis of the deposited data

Results flagged for a closer look

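miR-215 stood at 3.76 RPM in sham replicate 5, while the other 4 sham libraries had 0.890 to 1.52 RPM. The gap to the nearest of them was 0.78 of the range of the 5 libraries, above the limit of 0.71. It was the only value to do so among 14 groups of 5 values (the detected members, miR-215, miR-194-3p and the ratio of miR-192-5p to miR-194-5p), where chance gives about 0.7. No explanation was tested.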

How the results depend on the processing

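The results named here are the fold changes of the 4 detected members, the relation of miR-192-5p and miR-194-5p, and their ratio. Under the other pseudocounts, filters, scalings and voom, and without each library, the fold changes lay below 0 and did not pass (limma adjusted p from 0.49 to 0.98 without 1 library), where miR-122-5p and miR-217-5p could not be tested at the filter of 10 RPM. Leaving out 1 library gave -0.38 to -0.12 for miR-122-5p, -0.37 to -0.15 for miR-192-5p, -0.45 to -0.20 for miR-194-5p, -0.29 to -0.016 for miR-217-5p, and 0.92 to 0.99 for r of miR-192-5p with miR-194-5p. The log2 ratio of this pair then differed between groups by 0.018 to 0.10. miR-215 ran from -0.036 to 0.30, with -0.014 without sham replicate 1 and -0.036 without sham replicate 2. miR-194-3p ran from -0.39 to -0.0037, and its fold change turned to 0.42 with voom. In that fit its listed 0 in sham replicate 5 entered as 0 reads, and the part of that value was not tested. With a replicate block on the shared numbers 3 and 5, 8 of 474 miRNAs passed (limma), none of them a member, and miR-215 was at -0.46 and miR-194-3p at 0.21. That fit rests on 2 pairs, whose deviations correlated at -0.058 and -0.18, too few to decide whether the numbers pair the libraries. With a term for each number, it leaves little from which to estimate the spread between libraries. Its calls therefore carry little weight, and their cause was not tested. The planned count model on whole reads was not run, because values under 10 reads are taken to be listed as 0. Voom used the same reads and carries the same limit. miR-122-5p, miR-217-5p, miR-215 and miR-194-3p rested on at most 66 reads per library, which limits their precision. The same settings were added for 3 miRNAs of the tissue list after seeing the data. Of these only miR-200b-3p passed anywhere, at 2.08 with the replicate block.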
